A study of Rattus norvegicus with 2 samples.

Results

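Osr1, Nr2f1, Nr2f2, Tbx5, Foxf1, Foxf2 and Shox2 encode transcription factors of the posterior second heart field and of the venous pole of the heart. These 7 genes, of 37203 in the deposited count table, were found there by their symbols. They were selected on their known roles and with the counts of the same HO against WT comparison already seen, so their values are given as a description and without a test. RNA was taken from the cardiac OFT of homozygous (HO) Snx17-/- rat embryos and of wild-type (WT) embryos, both Sprague-Dawley and at E13.5. Each genotype was 1 library made from the pooled OFTs of 10 embryos. Embryos came from crosses of F1 heterozygotes, and HO embryos carry a CRISPR/CAS9 deletion in Snx17 in the whole embryo, not in the heart alone. A single pool per genotype leaves the spread between embryos and between libraries unknown, so no comparison carries a p-value.

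The second heart field is a population of progenitor cells behind the early heart tube that adds cells to both of its ends. Its anterior part builds the right ventricle and the OFT, and its posterior part builds the atria, the sinus venosus and the dorsal mesenchymal protrusion that helps to close the atrioventricular septum. In mice, retinoic acid and Hedgehog signals act on the posterior part, where Osr1 and Tbx5 act together in atrial septation and Foxf1 and Foxf2 respond to Hedgehog. Nr2f1 and Nr2f2 are orphan nuclear receptors of atrial muscle, and Nr2f2 also specifies venous endothelium. Shox2 is a homeobox factor of the sinoatrial node.

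The HO library held 9528615 counted reads and the WT library 9321811. A fold is the HO count over the WT count after scaling by TMM, the trimmed mean of M-values. Its 95% interval is the exact Clopper-Pearson one for the share of a gene's reads that came from the HO library, and covers counting error only. A gene was called lower or higher in the HO library where its whole interval lay beyond 1.5-fold, the fold threshold used in the study. Genes with 20 or more reads summed over both libraries, 15426 in all, were tested by this counting rule. It called 182 of them lower, which is 1.18%, and 119 higher, which is 0.771%. Snx17 itself had 994 reads in the HO library and 1365 in the WT library (log2 fold −0.47, interval −0.59 to −0.35) and was not called. Its transcript was thus still counted in the HO library, and a count over the whole gene, in which reads outside the deleted part also enter, does not check the label. Reads were found for the cell types of an OFT, in that every gene of the lists for muscle of the whole heart, for endothelium and endocardium and for cushion mesenchyme had 20 or more summed reads. Fewer cells of a type and less RNA per cell cannot be told apart in such pools.

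The RefSeq table of promoter windows (build GRCr8) held 4 of the 7 genes, namely Osr1, Nr2f1, Tbx5 and Foxf2. The 250 bases before the listed start are shown for Osr1 and Nr2f1, whose folds lay below 1 by more than counting error. The Osr1 window is chr6:38097401-38097650 on the plus strand, and that of Nr2f1 is chr2:9785925-9786174 on the minus strand. Capitals mark a GC box (GGGCGG on either strand).

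Osr1: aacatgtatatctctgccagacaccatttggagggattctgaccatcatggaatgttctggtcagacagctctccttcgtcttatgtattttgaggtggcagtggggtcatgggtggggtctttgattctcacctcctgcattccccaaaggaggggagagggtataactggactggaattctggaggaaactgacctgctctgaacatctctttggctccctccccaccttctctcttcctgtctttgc

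Nr2f1: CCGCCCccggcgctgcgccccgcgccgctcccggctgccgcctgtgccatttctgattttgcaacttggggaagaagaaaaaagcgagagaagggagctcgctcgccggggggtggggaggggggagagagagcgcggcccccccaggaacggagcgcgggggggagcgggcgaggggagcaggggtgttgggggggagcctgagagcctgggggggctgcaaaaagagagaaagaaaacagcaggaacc

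The listed start of Osr1 lies 8963 bases inside the gene's span in that build, and that of Tbx5 lies 4364 bases inside its own span. Which start of either gene is used in the OFT was not tested. The bases of the Nr2f1 window are 69.2% G or C and those of the Osr1 window 50%, beside a median of 52% over all 27457 windows. Windows from 250 bases before to 50 bases after the start were searched on both strands. The motifs were the GLI motif of Hedgehog signalling (GACCACCCA), the T-box motif (AGGTGTGA), the forkhead motif (GTAAACA), the GC box, the CCAAT box, the TATA motif (TATAAA) and direct repeats of the nuclear receptor motif AGGTCA with 1 or 5 bases between. Of the 4 windows, those of Nr2f1 and Foxf2 held a GC box, as did 34.9% of all windows. None of the 4 windows held any of the other motifs, which were in 0.379% (GLI), 1.1% (T-box), 3.76% (forkhead), 37.7% (CCAAT box) and 14.3% (TATA motif) of all windows. The direct repeats were in 0.0583% and 0.0109% of them. The Osr1 and Nr2f1 windows thus shared none of these letters, which says nothing of the factors themselves.

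In the HO library Osr1 had 38 reads, against 159 in the WT library. Osr1 is a zinc finger factor of the odd-skipped family, marks the posterior second heart field and is needed for the atrial septum in mice. The log2 fold was −2.08 (interval −2.63 to −1.56), a fold of 0.236, and the gene was called lower in the HO library. Among the 15426 tested genes, 50 had a lower log2 fold. Of 2234 tested genes whose summed reads were within 1.5-fold of those of Osr1, 3 had a lower log2 fold and 26 were called lower. The genes with a named symbol, a mean count within 1.5-fold and the log2 fold nearest to that of Osr1 were Fndc1 (−1.85), Adamts18 (−1.78) and Trpm5 (−1.76). This likeness rests on a single difference between 2 libraries. Osr2, the close relative of Osr1, had 6 reads in the HO library and 19 in the WT library (log2 fold −1.68, interval −3.29 to −0.30). Its interval reached into the range within 1.5-fold, so it was not called.

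Nr2f2 had 137 reads in the HO library and 282 in the WT library, a log2 fold of −1.06 (interval −1.36 to −0.76), and was called lower. Its nearest genes by the same measure were Lgals3bp (−1.05), Actg2 (−1.04) and Pdk2 (−1.04). Nr2f1 had 108 reads in the HO library and 180 in the WT library. Its log2 fold of −0.75 was past 1.5-fold, but the interval, from −1.11 to −0.40, was not wholly so, and the gene was not called. Nr2f1 and Nr2f2, also named COUP-TFI and COUP-TFII, share most of their DNA-binding and ligand-binding domains, and the annotation column of the count table gives Nr2f1 as the best match of both. Reads of these relatives could have been split between them in counting. With their reads summed, a setting chosen after the data were seen, the pair had 245 reads in the HO library and 462 in the WT library (log2 fold −0.93, interval −1.16 to −0.70). The fold of Nr2f1 was 1.23 times that of Nr2f2, with an exact conditional interval from 0.891 to 1.71, so a difference between the folds of the pair was not detectable at this depth. Nr2f6, a further relative, had 422 reads in the HO library and 396 in the WT library (log2 fold 0.08, interval −0.12 to 0.28). Osr2 and Nr2f6 are named after their values were seen.

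Tbx5 had 93 reads in the HO library and 85 in the WT library. It is a T-box factor of atrial and left ventricular muscle and of the posterior second heart field. The log2 fold was 0.11, with an interval from −0.33 to 0.56, so a difference between the libraries was not detectable at this depth. The fold of Osr1 was 0.219 times that of Tbx5 (exact conditional interval 0.134 to 0.354). It was 0.399 times that of Nr2f1 (interval 0.253 to 0.621) and 0.492 times that of Nr2f2 (interval 0.318 to 0.751). Among the 4 tested genes the fold of Osr1 was thus below each of the others by more than counting error. The pairs with Osr1 were chosen after their values were seen.

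**Figure D1:**
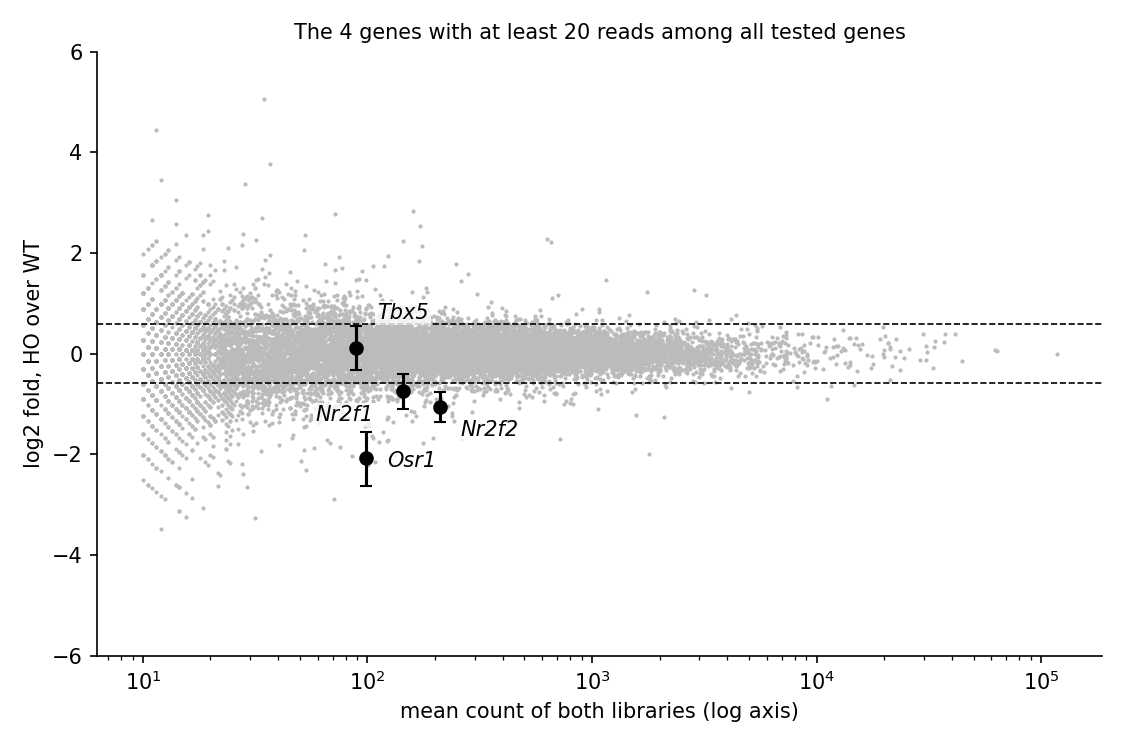
Log2 fold of HO over WT (vertical axis) against the mean count of both libraries (horizontal log axis) for the tested genes with reads in both libraries (grey points), with Osr1, Nr2f1, Nr2f2 and Tbx5 in black and their exact 95% counting intervals as bars. Dashed lines mark 1.5-fold in each direction; the intervals of Osr1 (−2.63 to −1.56) and Nr2f2 (−1.36 to −0.76) lie wholly below the lower line, that of Nr2f1 crosses it and that of Tbx5 includes 0.

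The other 3 genes had too few reads to be tested. Foxf1, a forkhead factor of foregut and lateral plate mesenchyme, had 2 reads in the HO library and 11 in the WT library. The ratio was 0.18, with a counting interval from 0.0194 to 0.824. Foxf2, its relative, had 0 reads in the HO library and 1 in the WT library. The floor was set at 3 reads, which for Foxf2 in the HO library is 0.115 RPKM (reads normalised to gene length and to the total of the library), whereas the exact 95% Poisson interval of its 0 reads reaches 3.69 reads or 0.142 RPKM. Shox2 had 1 read in each library, and its floor of 3 reads is 0.201 RPKM in the HO library and 0.205 RPKM in the WT library. As both libraries were at or under the floor for Foxf2 and Shox2, no fold is given, and a difference was not detectable at this depth. The exact 95% Poisson interval of 1 read reaches 5.57 reads.

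**Figure D2:**
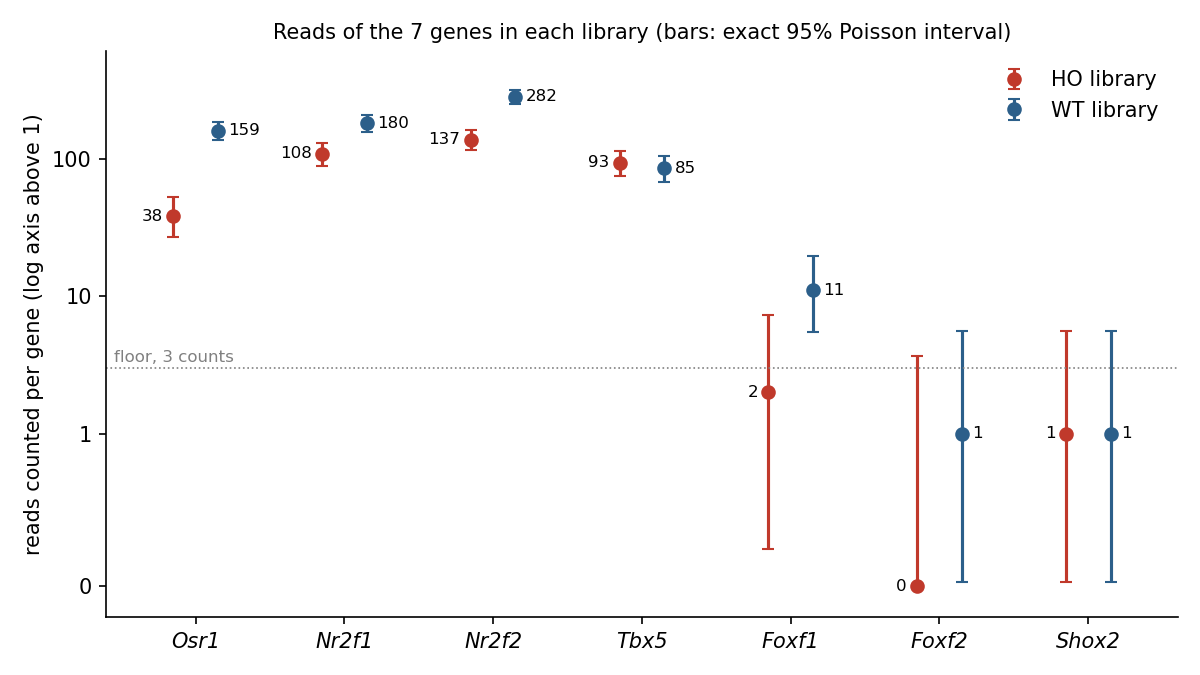
Reads counted for each of the 7 genes in the HO library (red, left of each pair) and the WT library (blue, right), on a vertical axis that is logarithmic above 1. Bars are exact 95% Poisson intervals of the count and the dotted line is the floor of 3 counts; the intervals of Osr1, Nr2f1 and Nr2f2 do not overlap between the libraries, those of the other 4 genes do.

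Of the 7 genes, 4 were thus tested, of which 2 were called lower and none was called higher, beside 1.18% and 0.771% of all tested genes. Nothing is read from this share, since the genes were chosen with this comparison known. Summed over the 7 genes there were 379 reads in the HO library and 719 in the WT library.

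Levels of different genes were compared per length, as deposited RPKM. In the HO library Nr2f1 had the highest level at 4.57 RPKM (Poisson interval of its count 3.75 to 5.52). It was followed by Tbx5 at 2.58 RPKM, Osr1 at 2.002 RPKM and Nr2f2 at 1.91 RPKM, and neighbours among these 3 had overlapping intervals. In the WT library Osr1 had 8.56 RPKM (interval 7.28 to 10.002) and Nr2f1 had 7.79 (interval 6.70 to 9.02), which overlap. Nr2f2 at 4.02 RPKM and Tbx5 at 2.41 followed in the WT library, and each lay below the interval of the gene before it. The ratio of the Osr1 level to the Tbx5 level was 0.775 in the HO library and 3.55 in the WT library. That of Nr2f1 to Nr2f2 was 2.39 in the HO library and 1.94 in the WT library. The level of Osr1 was thus above that of Tbx5 in the WT library, where their intervals do not overlap. In the HO library its point value was below that of Tbx5, but the intervals overlap, so the order there is not settled. Foxf1 had 0.0846 RPKM in the HO library and 0.475 in the WT library. Among the genes with an RPKM above 0, Osr1 stood above 41.4% in the HO library and 63.9% in the WT library. For Tbx5 these shares were 44.6% in the HO library and 43.8% in the WT library. The gene lengths behind these values ranged from 1569 bp (Shox2) to 7524 bp (Nr2f2).

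**Figure D3:**
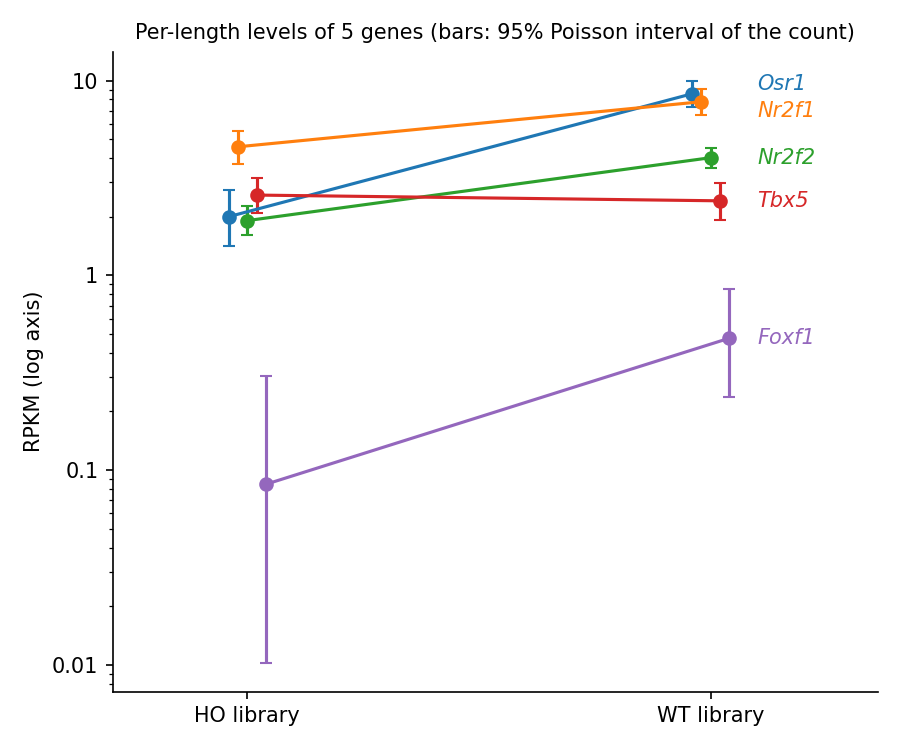
Level in RPKM (vertical log axis) of the 5 genes with more than 3 reads in a library, in the HO library (left) and the WT library (right), with lines joining the 2 values of a gene. Bars are the exact 95% Poisson intervals of the counts on the RPKM scale; Osr1 stands at 2.002 RPKM in the HO library, where its interval overlaps those of Tbx5 and Nr2f2, and at 8.56 RPKM in the WT library, where its interval overlaps that of Nr2f1.

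Reads of overlapping genes may enter these counts, since whether counting used strand is not stated. In the RefSeq gene table of GRCr8, Nr2f2 is overlapped by the long noncoding RNA LOC102553329, which had 9 reads in the HO library and 22 in the WT library. Shox2 is overlapped by Rsrc1, a splicing-related gene with 176 reads in the HO library and 139 in the WT library. The other 5 genes had no overlapping gene in that table.

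The 22 other genes listed for the posterior second heart field and the venous pole had calls in both directions. Of the 19 tested, 2 were called lower and 2 higher, 15 had a log2 fold below 0, and the median was −0.19, beside 0.01 and 48.6% below 0 for all tested genes. Tbx18, a T-box factor of the sinus venosus and the epicardium, had 541 reads in the HO library and 1054 in the WT library (log2 fold −0.98, interval −1.13 to −0.83). Hoxb5, a Hox factor of trunk mesoderm, had 3 reads in the HO library and 26 in the WT library (log2 fold −3.13, interval −5.50 to −1.42). Sfrp5, a secreted Wnt inhibitor of the venous pole, was called higher, with 47 reads in the HO library and 17 in the WT library (log2 fold 1.45). Wnt2, a ligand of posterior second heart field cells and lung mesenchyme, was also called higher, with 86 reads in the HO library and 38 in the WT library (log2 fold 1.16). Sfrp5 was called in 6 and Wnt2 in 4 of the 8 scalings tried, while Tbx18 and Hoxb5 were called in all 8. Isl1, a factor of the whole second heart field, had 343 reads in the HO library and 387 in the WT library (log2 fold −0.19, interval −0.40 to 0.02), and is named here after its value was seen.

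Of 13 tested genes of the anterior second heart field, none was called, and the median was −0.02. Its genes with most reads were Tbx20, a T-box factor of cushions and muscle (log2 fold −0.18), and Nkx2-5, a homeobox factor of cardiac muscle (log2 fold 0.32). Of its genes with few reads, Tbx1, a T-box factor that marks this field, had 29 reads in the HO library and 61 in the WT library (log2 fold −1.09, interval −1.78 to −0.43). Fgf10, a growth factor of the same field, had 6 reads in the HO library and 16 in the WT library (log2 fold −1.43, interval −3.07 to −0.0024). Both point estimates lay past 1.5-fold but their intervals did not wholly, and both genes are named after their values were seen.

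Genes of the signals that act on the posterior second heart field were measured as well. None of 13 tested Hedgehog pathway genes was called, 10 lay below 0, and the median was −0.40. Cdon, a co-receptor, had 1473 reads in the HO library and 2037 in the WT library (log2 fold −0.48), and Smo, the signal transducer, had 1067 reads in the HO library and 1432 in the WT library (log2 fold −0.44). Ptch1 and Gli1, whose transcripts rise with Hedgehog signalling, stood on the other side of 0 from the median of their list. The log2 fold was 0.22 for Ptch1 (interval −0.01 to 0.45) and 0.47 for Gli1 (interval 0.15 to 0.80). They are named here after their values were seen. Shh and Ihh had 0 reads in either library, and the exact 95% Poisson interval of 0 reads reaches 3.69 reads. Dhh, the other Hedgehog ligand, had 63 reads in the HO library and 59 in the WT library (log2 fold 0.08, interval −0.46 to 0.62). Dhh was not called and is named after its value was seen. Of 17 tested genes of retinoic acid synthesis, binding and response, none was called, 15 lay below 0, and the median was −0.26. This list leaves out Aldh1a2, an enzyme of retinoic acid synthesis, which was placed in the venous pole and epicardial lists. Aldh1a2 had 740 reads in the HO library and 1097 in the WT library (log2 fold −0.58, interval −0.72 to −0.45). It was not called and is named after its value was seen. Rara, a receptor, had 975 reads in the HO library and 1098 in the WT library (log2 fold −0.19, interval −0.31 to −0.06). Under 1 or more of the 8 scalings, 1 gene of this list was called lower. Nearest to the limit was Dhrs3, with 179 reads in the HO library and 315 in the WT library (log2 fold −0.83, interval −1.10 to −0.56). Crabp1 followed, with 78 reads in the HO library and 145 in the WT library (log2 fold −0.91, interval −1.33 to −0.50). Dhrs3 and Crabp1 are named after their values were seen.

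Relatives of the 7 genes in the T-box, forkhead and paired-type homeobox families, with Osr2 and Nr2f6, were counted too. Of 23 tested, Tbx18 was called lower, none was called higher, and 17 lay below 0, with a median of −0.18.

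**Figure D4:**
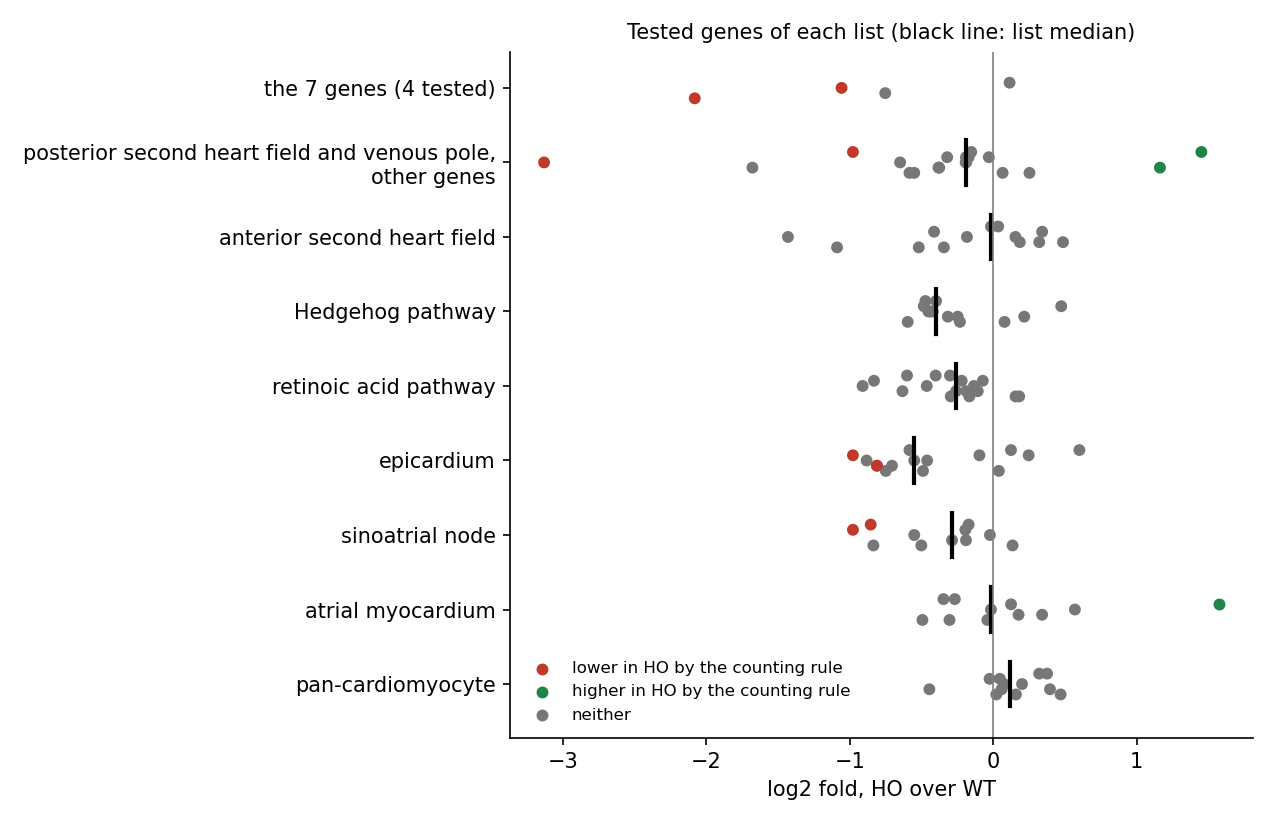
Log2 fold of HO over WT (horizontal axis) of each tested gene with reads in both libraries, by list, with genes called lower in the HO library in red, genes called higher in green and others in grey. Of the 23 lists, 8 are drawn; black lines are their medians, which run from −0.55 for the epicardium to 0.12 for muscle of the whole heart, and no median is drawn for the 4 tested genes of the 7, which were chosen with these values known.

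Markers of cells that the dissected OFT could hold were counted as well. Of 15 epicardial genes, all tested and none at 0, 2 were called lower and none higher, and 11 lay below 0. The list summed to 4821 reads in the HO library and 6362 in the WT library, with a median log2 fold of −0.55. Tcf21, a factor of the epicardium and its derivatives, had 314 reads in the HO library and 545 in the WT library (log2 fold −0.81), and Tbx18 was the other gene called. The part of the epicardial genes in the lower counts of Osr1 and Nr2f2 was not tested. Of 12 sinoatrial node genes, 11 were tested and 2 called lower, namely Tbx18 and Smoc2 (log2 fold −0.85). Of the 11, 10 lay below 0, and the median was −0.29. The list summed to 6223 reads in the HO library and 7681 in the WT library. Hcn4, the pacemaker channel, stood on the other side of 0 from that median (log2 fold 0.14) and is named after its value was seen. Tbx18 is in the epicardial, nodal, venous pole and family lists, which are therefore not independent of each other.

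Of 12 atrial muscle genes, 11 were tested and 1 was called higher, Nppa, the atrial natriuretic peptide (log2 fold 1.57). The list summed to 53680 reads in the HO library and 44610 in the WT library, with a median of −0.02. Most of these reads were of Myl7 and Myh6, named after their values were seen. Myl7 had 22624 reads in the HO library and 17669 in the WT library, and Myh6 had 22337 and 20266. The sum thus mostly reflects these 2 genes. The 12 genes of muscle of the whole heart summed to 215275 reads in the HO library and 188814 in the WT library, with a median of 0.12 and no call. Actc1, cardiac actin, had a log2 fold of 0.40 and Myh7, a myosin heavy chain, one of 0.07. Of 7 ventricular genes, Myl2 (log2 fold 0.68) and Irx3 (1.86) were called higher, and the list summed to 10379 reads in the HO library and 8155 in the WT library. The summed reads of all 3 muscle lists were thus higher in the HO library, although 6 of the 11 tested atrial genes lay below 0. The part of muscle in the counts of the 7 genes was not tested.

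Nr2f2 also belongs to venous endothelium. Of 8 venous and lymphatic genes, Nt5e, an ectonucleotidase, was called lower, with 18 reads in the HO library and 63 in the WT library (log2 fold −1.82). The list summed to 3420 reads in the HO library and 3883 in the WT library, with a median of −0.27 and none at 0. None of 8 arterial genes was called (median −0.05), with Nrp1, a co-receptor, at −0.12 and Hey2, a Notch target, at 0.03. None of 11 genes of endothelium and endocardium was called (median 0.12), with Tie1 at 0.03 and Tek at 0.29, both receptors of the vessel wall.

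Foxf1, Nr2f2, Osr1 and Tbx5 are also expressed in the mesenchyme of foregut and lung, which lies next to the heart. Of 12 such genes in the table, 6 were tested, 1 was called lower (Hoxb5) and 1 higher (Wnt2), and the list summed to 3313 reads in the HO library and 3621 in the WT library. Among its genes, 4 had 0 reads in the HO library and 3 had 0 in the WT library. Of 13 foregut epithelial genes, Nkx2-1, Shh, Foxa2, Pax9 and Foxe1 had 0 reads in both libraries, and only 3 genes were tested, none of which was called. The list summed to 519 reads in the HO library and 465 in the WT library, mostly from Krt8 (log2 fold 0.09) and Krt18 (0.23), keratins that are not limited to foregut. None of 9 tested genes of pharyngeal arch mesenchyme was called, and the list summed to 2660 reads in the HO library and 2702 in the WT library. Its genes with most reads, Twist1 and Prrx2, had log2 folds of 0.25 and −0.17.

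For other cell types, calls went in either direction. None of 7 tested neural crest and glial genes was called (median −0.31), with Ngfr at −0.29 and Erbb3 at −0.06. Of 11 tested neuronal genes, Dcx (log2 fold −3.24) and Isl2 (−2.66) were called lower, 6 lay below 0, and the median was −0.44. The neuronal list summed to 2087 reads in the HO library and 2035 in the WT library. None of 12 cushion mesenchyme genes was called (median −0.11), with Vcan, a matrix proteoglycan, at 0.29, but 1 gene of the list was called lower under 1 or more of the 8 scalings. Nearest to the limit was Pdgfra, with 1665 reads in the HO library and 2616 in the WT library (log2 fold −0.67, interval −0.76 to −0.58). Pdgfra, a growth factor receptor, is named after its value was seen. Of 9 smooth muscle genes, Eln (log2 fold −0.91) and Mylk (−1.34) were called lower. Macrophage and leukocyte genes summed to 418 reads in the HO library and 198 in the WT library, and Csf1r (log2 fold 1.45) and C1qc (1.24) were called higher among 7 tested. None of 7 tested erythroid genes was called, with Hbe1 at 0.09 and Slc4a1 at −0.20. Of 4 tested hepatocyte genes, Alb was called higher, with 22 reads in the HO library and 1 in the WT library (log2 fold 4.44, interval 1.82 to 9.81), and Apoa2 had 0 reads in both. Serpina1, named after its value was seen, had 17 reads in the HO library and 0 in the WT library, too few to be tested. Of the 4 tested hepatocyte genes, 2 lay below 0. The part of any of these cells in the counts of the 7 genes was not tested.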

How the data were processed

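RNA of pooled cardiac OFTs, 1 HO and 1 WT library, was sequenced as single-end reads on an Ion Proton instrument. Reads were cleaned by the authors and mapped with MapSplice to Rnor 6.0, and a table of counts per gene was deposited. The sources used here name no counting tool, gene models or strandedness. RPKM values were deposited in a separate table, from which, with the counts, gene lengths were recovered. The headers of both tables name stage E11_5, whereas the labels give E13.5, which was used.

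TMM factors came from edgeR 4.0.16 under R 4.3.3, and the effective sizes had an HO to WT ratio of 1.01. DESeq2 1.42.0 was used for size factors only. With 1 library per genotype, models of replicate spread could not be fitted, and EBSeq, the method of the study, was not run. Intervals were computed in Python 3.11.15 with scipy 1.17.1, lowess centring with statsmodels 0.14.6 and figures with matplotlib 3.10.9. The rule was tested on simulated counts. Poisson and Clopper-Pearson intervals are at 95% and cover counting error only.

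The 7 genes, the 23 gene lists and the motifs were chosen with earlier results of these data known. Named were the 7 genes, Snx17, up to 4 called genes with the most reads per list or, where none was called, the 2 with the most reads, and 3 genes nearest to each called member; others are stated as named after their values were seen, and 1 gene under this rule is not reported here. Foxl1, Hba-a1 and Hba-a2 of the lists were not matched in the table.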

Additional observations from a re-analysis of the deposited data

How the results depend on the processing

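The calls of Osr1 and Nr2f2 held under all 8 scalings (TMM, TMM with haemoglobin and mitochondrial genes left out, upper-quartile factors, DESeq2 size factors, totals, RPKM ratios, and centring by abundance or by gene length). Their log2 folds ranged from −2.12 to −2.06 and from −1.10 to −0.99. Nr2f1 ranged from −0.80 to −0.74, Foxf1 from −2.52 to −2.20 and Tbx5 from 0.07 to 0.13, and neither Nr2f1 nor Tbx5 was called under any of them. With TPM in place of RPKM, the log2 ratio of HO over WT levels was −2.17 for Osr1 and 0.03 for Tbx5. RPKM ratios repeat the scaling by totals (both −2.10 for Osr1), so they are not separate checks. The calls of Osr1 and Nr2f2 also held with a 99% interval. With no filter or a minimum of 100 reads these calls could not change. A filter alters no fold or interval, and both genes had more than 100 summed reads. With an interval wholly past 2-fold, 1 of the 7 genes was called lower, Osr1, and with the fold itself past 1.5-fold 3 were, with Nr2f1 added.

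Over all genes, 117 were lower and 73 higher with a 99% interval, 110 lower and 75 higher with at least 100 reads, 57 lower and 42 higher past 2-fold, and 1158 lower and 967 higher by the fold itself, since these settings are stricter or looser by construction. The median of pharyngeal arch genes changed sign among the scalings (−0.06 to 0.15). The calls of Myl2 and C1qc also ended under some of them. No paired analysis was possible because each genotype had 1 library. Depth limits Foxf1, Foxf2 and Shox2 most.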
